A study of Homo sapiens with 16 samples.

Results

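The integrated stress response was followed through 9 human genes: 5 whose mRNAs are known to be controlled by upstream reading frames, here called uORF-controlled (ATF4, ATF5, DDIT3, PPP1R15A and PPP1R15B) and the 4 kinases of the translation factor eIF2α (EIF2AK1, EIF2AK2, EIF2AK3 and EIF2AK4). They were found by gene symbol and each had 1 row among 23597 genes measured by RNA-seq and 1 row among 19201 genes measured by Ribo-seq, which reads the mRNA fragments that ribosomes protect (footprints). All 9 passed the filter on low counts in both assays, together with 13177 genes tested for transcripts, 11288 for footprints and 11166 for both.

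The cells were WI-38, a human fibroblast line from lung with a finite lifespan in culture. Senescent cells (passage 36) and young cells (passage 24) were heat shocked for 2 h at 44 °C or kept as controls, and each of the 4 conditions had 2 RNA-seq and 2 Ribo-seq libraries. The temperature is written 440C in the labels and was read as a lost degree sign. All cells, controls included, had been starved of serum for 24 h and returned to complete medium for 24 h before the heat shock. The labels do not say whether the 2 replicates of a group were separate cultures, so p-values measure the spread between these libraries, which may be technical, and all cells were of 1 line.

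Counts assigned to genes came to 26434514 to 37126871 per RNA-seq library and 4581141 to 9104077 per Ribo-seq library. The heat shock panel HSPA1A, HSPA6 and DNAJB1, which code for inducible chaperones, rose in all 4 heat shock comparisons of transcripts and footprints, by at least 5.01 on the log2 scale (edgeR, adjusted p of 0.000459 or lower). All 8 listed fibroblast markers were present, with at least 64.4 scaled CPM (read counts divided by library total) in every library. KRT5, CDH5, CD3E and PTPRC, which mark epithelial, endothelial and leukocyte cells, had at most 0.228 CPM in any library, while KRT19, at 29.7 to 86.5 CPM, and CD68, at 92.6 CPM or more, were present in RNA-seq. The endothelial marker VWF was low but detected, at 0.474 to 1.45 CPM in RNA-seq. The epithelial marker EPCAM reached 0.797 CPM in Ribo-seq. CDKN1A, a cell cycle inhibitor of senescent cells, was at 991 and 1442 CPM in senescent control RNA-seq libraries, against 578 and 684 CPM in young ones, and the proliferation marker MKI67 was at 7.57 and 27.8 CPM, against 31.7 and 48.5 CPM. The lamin gene LMNB1 was at 7.02 and 10.6 CPM, against 19.6 and 21.5 CPM, and none of these 3 was called. The young control footprint libraries differed from each other by little more than sampling noise, with a chi-square per gene of 1.73 against 17.2 to 38.7 in the other Ribo-seq groups. Every change is relative to the other genes. Scaling by library size alone shifted the median heat shock change of all genes by −0.23 to −0.28 on the log2 scale in transcripts and footprints. In bulk samples fewer cells that express a gene and less RNA per cell cannot be told apart.

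The integrated stress response lowers overall protein synthesis when any of the kinases phosphorylates eIF2α, the factor that brings the initiator tRNA to the ribosome. A small set of mRNAs is translated better under these conditions, because scanning ribosomes then pass the start codons of short reading frames that lie upstream of the main frame. ATF4 and ATF5 are transcription factors of the response and DDIT3 codes for CHOP, a factor tied to prolonged stress. PPP1R15A (GADD34) and PPP1R15B (CReP) are the inducible and the constitutive subunits that direct protein phosphatase PP1 to eIF2α. EIF2AK1 (HRI) is known for haem deficiency and mitochondrial or oxidative stress, EIF2AK2 (PKR) for double-stranded RNA, EIF2AK3 (PERK) for unfolded proteins in the endoplasmic reticulum and EIF2AK4 (GCN2) for uncharged tRNA.

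Start sites of upstream frames are shown because the control of the 5 mRNAs is known to act through these frames, with 1 window of a kinase for comparison. The 30-base windows below were read 5′ to 3′ from GENCODE release 29 transcripts (GRCh38), with the upstream start codon in capitals. They come from the principal transcript of each gene whose length was nearest to that implied by the deposited values, on chromosome 22, plus strand, for ATF4, chromosome 19, plus strand, for ATF5 and PPP1R15A, chromosome 12, minus strand, for DDIT3, chromosome 1, minus strand, for PPP1R15B and chromosome 2, minus strand, for EIF2AK3.
ATF4 upstream frame 2: tccacggccaccATGgcgtattaggggcag
ATF4 upstream frame 3: gcggcttaagccATGgcgcttctcacggca
ATF5 upstream frame 1: gtagccccggccATGgctctgtagcctcga
ATF5 upstream frame 2: cttgctgcagccATGgagtcttccactttc
DDIT3 upstream frame 1: actgagcgtatcATGttaaagatgagcggg
PPP1R15A upstream frame 2: cctgagggtgagATGaacgcgctggcctcc
PPP1R15B upstream frame 2: ttccccgccaggATGgaagtcgcatcagtc
EIF2AK3 upstream frame 1: cagcctgggaacATGgagtggcagcggccg

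ATF4 and ATF5 had the same arrangement. In both, a frame of 3 codons (ATF4 frame 2, ATF5 frame 1) was followed by a frame of 59 codons that began 97 bases before the main start in ATF4 and 124 bases before it in ATF5 and ran past that start in another register. ATF4 had a further start codon nearer the transcript start that was followed directly by a stop codon. The frame shown for DDIT3 had 34 codons, that of PPP1R15A 26 and that of PPP1R15B 51, and each ended before the main start. DDIT3 also had a frame of 73 codons, not shown, that began 32 bases before the main start and ran past it.

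Upstream start codons were also found outside the 5 mRNAs. EIF2AK3 held 3 upstream frames. The frame shown had 54 codons, and another, of 8 codons, overlapped the main start. EIF2AK2 held 1 upstream frame, whereas EIF2AK1 and EIF2AK4 had none. Among 10939 tested genes with a transcript, 50.4% had at least 1 upstream ATG and 16.4% had a frame that ran past the main start.

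In control cells 4 of the 5 mRNAs were abundant or moderate as transcripts and carried few footprints. Levels between genes are given as TPM, which are scaled by gene length and library total. ATF4 had 382 and 413 TPM in senescent control RNA-seq libraries, against 316 and 385 TPM in young ones, and was the highest of the 9 genes. In footprints it had 17.1 and 29.3 TPM in senescent controls, against 25.7 and 21.5 TPM in young controls, while the kinases EIF2AK1 and EIF2AK2 had means of 45.4 ± 0.55 and 45.0 ± 1.7 TPM in young controls (SD, n = 2), clearly above ATF4 at 23.6 ± 3.0 TPM. In senescent controls the means of EIF2AK1 (32.5 ± 12 TPM), EIF2AK2 (38.7 ± 13 TPM) and EIF2AK4 (26.3 ± 4.0 TPM) were higher than that of ATF4 (23.2 ± 8.6 TPM), with wide spread.

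The ratio of mean footprint TPM to mean transcript TPM expresses this as a relative density of ribosomes, not as a number of ribosomes per transcript. In senescent controls it was 0.0584 for ATF4 and in young controls 0.0673, where the median over 11166 genes was 0.948 and 0.860. Only 0.322% of genes in senescent controls and 0.197% in young controls had a lower ratio. ATF5 had the lowest ratio of the 9 genes, 0.0257 in senescent and 0.0176 in young controls.

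DDIT3 and PPP1R15A were also near the bottom of all genes. DDIT3 had a ratio of 0.107 in senescent and 0.103 in young controls, and PPP1R15A had 0.126 and 0.110. PPP1R15B, which also has upstream frames, was not low, with a ratio of 1.08 in senescent controls and 0.871 in young controls, close to the median of all genes. Footprint values here appear to refer to the main frames, though the annotation used for counting is not given. The lengths implied by the Ribo-seq counts and TPM lay within 0.25 on the log2 scale of the coding length for 88.1% of 10134 genes. For EIF2AK4 the implied length was 5274 bases, against 4947 coding and 5499 transcript bases. If only coding regions were counted, ribosomes on upstream frames entered at most where a frame overlaps the main one. Such frames were found in ATF4, ATF5, DDIT3 and EIF2AK3.

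Among the kinases, EIF2AK2 stood at the other end. Its ratio was 4.53 in senescent controls and 4.16 in young controls, with 97.5% and 97.8% of genes lower. EIF2AK1 had a ratio of 0.558 and 0.660 in these conditions, EIF2AK3 0.716 and 0.596, and EIF2AK4 0.495 and 0.403.

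**Figure D1:**
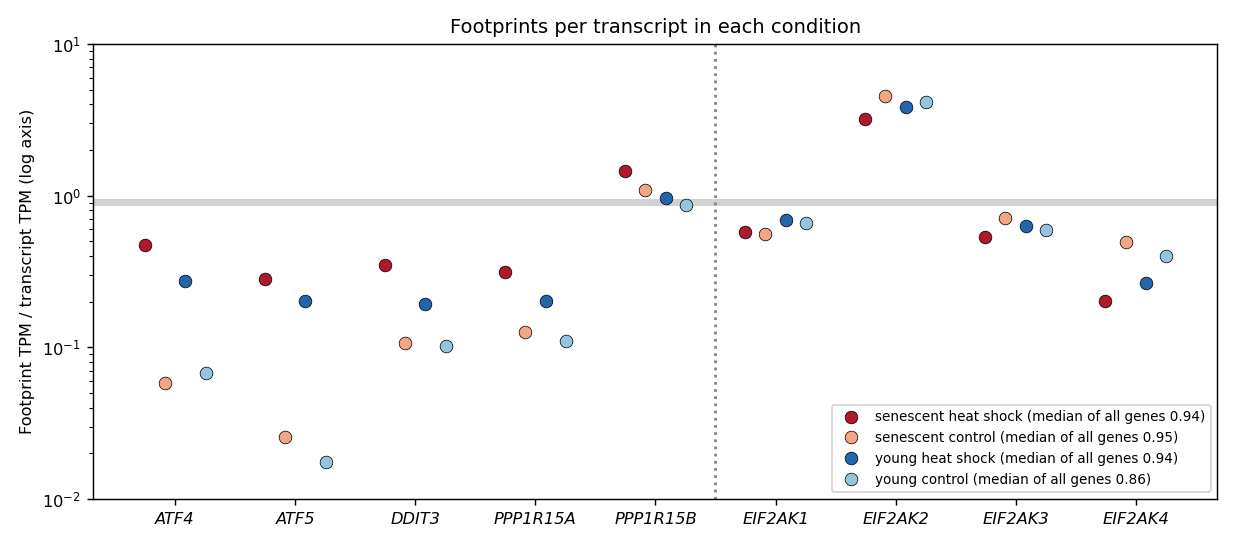
Footprint TPM divided by transcript TPM (means of 2 libraries each, log axis) for the 9 genes in the 4 conditions, with the range of the medians of all genes as a grey band. ATF4, ATF5, DDIT3 and PPP1R15A lie below the band in controls and higher on heat shock, and EIF2AK4 lies lower on heat shock than in controls.

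By transcript TPM the order of the 9 genes in controls was ATF4, PPP1R15A and EIF2AK1, then EIF2AK4, with ATF5 and DDIT3 next and PPP1R15B, EIF2AK3 and EIF2AK2 last. In senescent controls EIF2AK1 (58.3 ± 5.5 TPM, SD, n = 2) and EIF2AK4 (53.2 ± 3.7 TPM) differed by less than their spread. So did ATF5 (41.4 ± 5.8 TPM) and DDIT3 (37.3 ± 8.1 TPM), while the libraries of EIF2AK3 (10.7 ± 0.72 TPM) and EIF2AK2 (8.54 ± 1.8 TPM) lay close together without overlap. In senescent heat-shocked cells PPP1R15A (664 ± 55 TPM) stood above ATF4 (533 ± 11 TPM), and in young heat-shocked cells ATF4 (708 ± 13 TPM) stood above PPP1R15A (380 ± 15 TPM).

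Footprints on ATF4, ATF5, DDIT3 and PPP1R15A were higher in every heat-shocked library than in any control of the same state. With 2 libraries a group, lack of overlap is weak evidence by itself. How many of all genes separated in this way was not counted, here or below. ATF4 had 265 and 417 CPM in senescent heat-shocked cells, against 18.5 and 31.6 CPM in senescent controls. In young cells it had 213 and 257 CPM on heat shock, against 27.2 and 22.7 CPM in controls. The groups were far apart, with log2 changes of 3.76 ± 0.34 (SE) in senescent cells (edgeR, adjusted p = 0.000983) and 3.23 ± 0.33 in young cells (adjusted p = 0.00206), and both were called whichever single library was left out.

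PPP1R15A footprints reached 429 and 712 CPM in senescent heat-shocked cells, against 36.6 and 31.9 CPM in senescent controls. On heat shock in young cells they were at 272 and 103 CPM, against 26.1 and 26.2 CPM in young controls. The 2 young heat-shocked libraries thus stood well apart from each other while both exceeded the controls. The log2 change was 4.06 ± 0.46 in senescent cells (adjusted p = 0.00301) and 2.84 ± 0.44 in young cells (adjusted p = 0.0197). Without young heat shock replicate 1 the young value was 1.98 (adjusted p = 0.0589), and the call was lost also without either young control library and with limma on log2 TPM (adjusted p = 0.0550).

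DDIT3 and ATF5 had few footprints, so their values rest on small counts. DDIT3 had 99 and 50 footprints in senescent heat-shocked libraries, against 11 and 10 in senescent controls. In young cells it had 82 and 64 on heat shock, against 16 and 19 in controls, with no overlap in either state. Its log2 change was 2.60 ± 0.40 in senescent cells (adjusted p = 0.0108) and 2.96 ± 0.39 in young cells (adjusted p = 0.00764). ATF5 had 50 and 45 footprints in senescent heat-shocked libraries, against 3 and 7 in senescent controls. For young cells the heat-shocked libraries held 12 and 26, against 3 and 6 in the controls, again without overlap. The log2 change of ATF5 was 3.11 ± 0.62 in senescent cells (adjusted p = 0.0229) and 2.92 ± 0.65 in young cells, where it did not pass (adjusted p = 0.0711, 0.0211 without the filter and 0.0167 by DESeq2).

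PPP1R15B footprints differed little. They were at 38.5 and 31.2 CPM in senescent heat-shocked cells, against 42.5 and 27.7 CPM in senescent controls, and at 33.5 and 42.0 CPM in young heat-shocked cells, against 30.8 and 31.2 CPM in young controls. The groups overlapped in senescent cells and lay close together without overlap in young cells, with log2 changes of −0.00 ± 0.26 (adjusted p = 0.994) and 0.29 ± 0.26 (adjusted p = 0.639). Of the 5 mRNAs, 4 therefore rose in senescent cells and 3 in young cells. Of all genes tested for footprints, 8.35% were called on heat shock in senescent cells and 1.15% in young cells, in either direction. With the kinase EIF2AK4, which fell, 5 of the 9 genes were called in senescent cells and 3 in young cells. When the young control footprint libraries were counted as 1 sample, 3 and 1 of the 9 were called, where 2.13% and 0.233% of all genes were called. The DDIT3 call was lost without senescent control replicate 2 in senescent cells (adjusted p = 0.0504) and in 3 of 8 such fits in young cells, and the ATF5 call in senescent cells in 5 of 8.

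**Figure D2:**
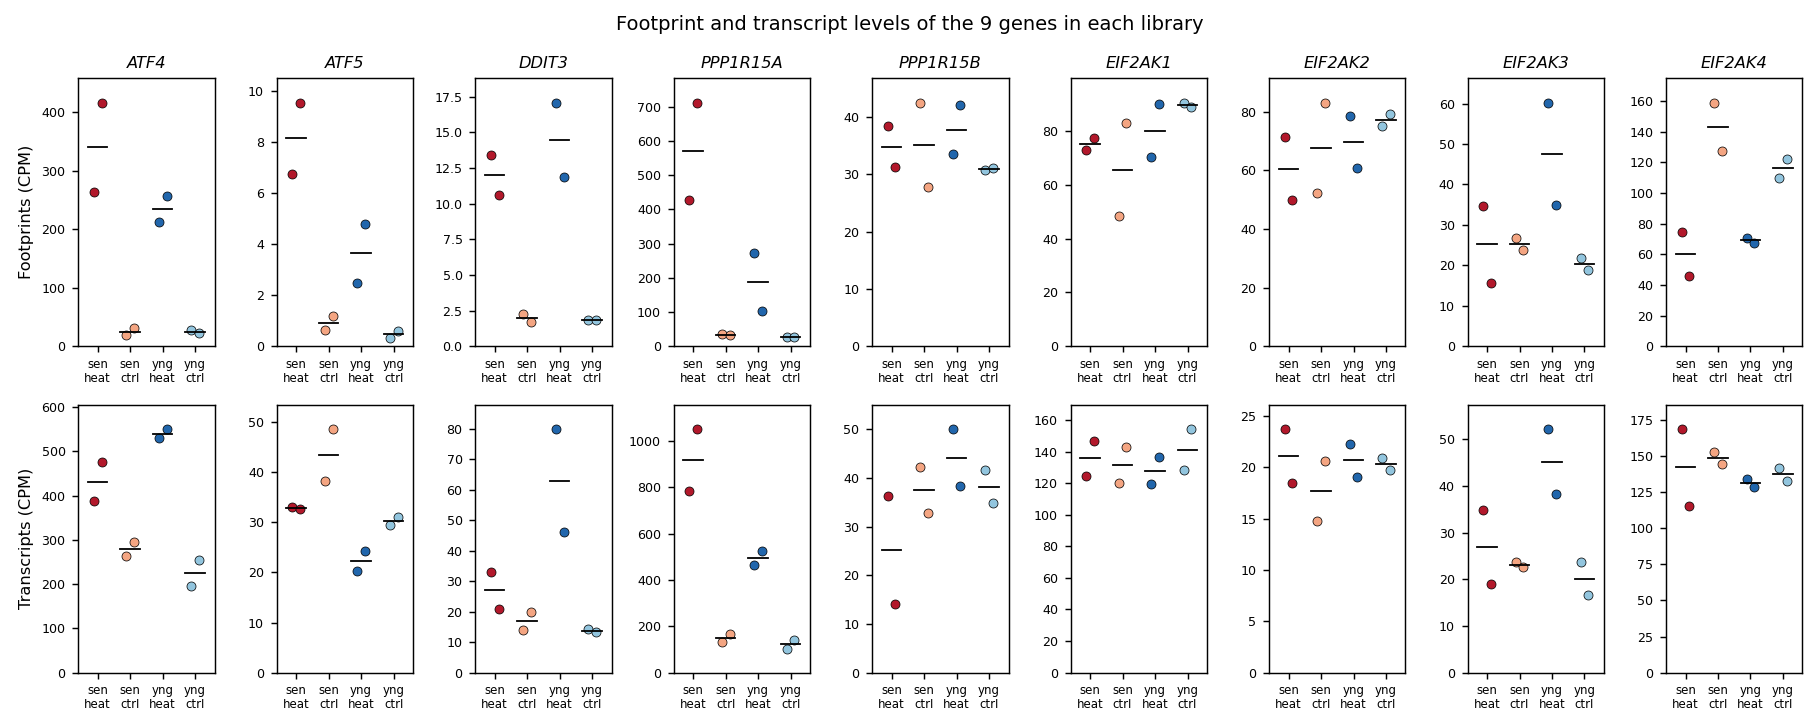
Footprints (upper row) and transcripts (lower row) of the 9 genes in CPM, with 1 point per library and a line at the mean of the 2 libraries of a condition. Heat-shocked libraries of ATF4, ATF5, DDIT3 and PPP1R15A lie above all control libraries in footprints, and EIF2AK4 footprints lie below them.

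Transcripts of the 5 genes differed in direction and size. PPP1R15A transcripts rose in both states, to 786 and 1051 CPM in senescent heat-shocked cells, against 132 and 167 CPM in senescent controls, and to 465 and 523 CPM in young heat-shocked cells, against 103 and 142 CPM in young controls. The log2 changes were 2.62 ± 0.25 in senescent cells (adjusted p = 0.00427) and 2.02 ± 0.25 in young cells (adjusted p = 0.0102). The senescent call was lost without either senescent control library (adjusted p up to 0.0913), and the young call without young control replicate 1 (adjusted p = 0.0997).

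ATF4 and DDIT3 transcripts rose in young cells. ATF4 had 530 and 550 CPM in young heat-shocked cells, against 196 and 254 CPM in young controls, a log2 change of 1.26 ± 0.20 (adjusted p = 0.0321). DDIT3 had 79.9 and 46.2 CPM in young heat-shocked cells, against 14.3 and 13.2 CPM in young controls, a log2 change of 2.20 ± 0.35 (adjusted p = 0.0321). In both cases the groups did not overlap, but the ATF4 call was lost in 6 of 8 fits that left out 1 library and the DDIT3 call in 5 of 8. The DDIT3 call was also lost with scaling by library size only (adjusted p = 0.0676) and with limma on log2 TPM (adjusted p = 0.0732).

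In senescent cells the transcripts of both genes were less clearly higher. ATF4 had 388 and 475 CPM in senescent heat-shocked cells, against 263 and 295 CPM in senescent controls, with a log2 change of 0.63 ± 0.20 (adjusted p = 0.377, and 0.0238 with the replicate number as a block). DDIT3 had 33.2 and 20.8 CPM in senescent heat-shocked cells, against 14.1 and 19.7 CPM in senescent controls, with a log2 change of 0.67 ± 0.34 (adjusted p = 0.693). The difference between the states in the heat response of DDIT3, senescent minus young, was −1.53 ± 0.48 with an unadjusted p of 0.0132 and an adjusted p of 1.00.

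ATF5 had lower transcript values on heat shock, the opposite of its footprints. Its transcripts were at 33.1 and 32.7 CPM in senescent heat-shocked cells, against 38.3 and 48.6 CPM in senescent controls, and at 20.2 and 24.3 CPM in young heat-shocked cells, against 29.5 and 31.0 CPM in young controls. Every heat-shocked library was thus below the controls of its state, but the change was not called in either state. Averaged over both states the log2 change was −0.42 ± 0.15 (adjusted p = 0.214, and 0.0218 with the replicate block, 0.0333 with library size only). PPP1R15B transcripts had log2 changes of −0.58 ± 0.41 in senescent and 0.21 ± 0.40 in young cells, and senescent heat shock replicate 2 was low at 14.1 CPM, against 36.3 CPM in replicate 1.

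Of the 9 genes 1 was called in transcripts on heat shock in senescent cells and 3 in young cells, where 0.577% and 1.14% of all genes were called. With the replicate block 2 and 4 genes were called, against 6.28% and 8.77% of all genes. Averaged over the states, 3 genes were called without the block, against 3.54% of all genes, and 5 with it, against 20.6%. For footprints the averaged comparison called 5 of the 9 genes and 16.5% of all genes.

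**Figure D3:**
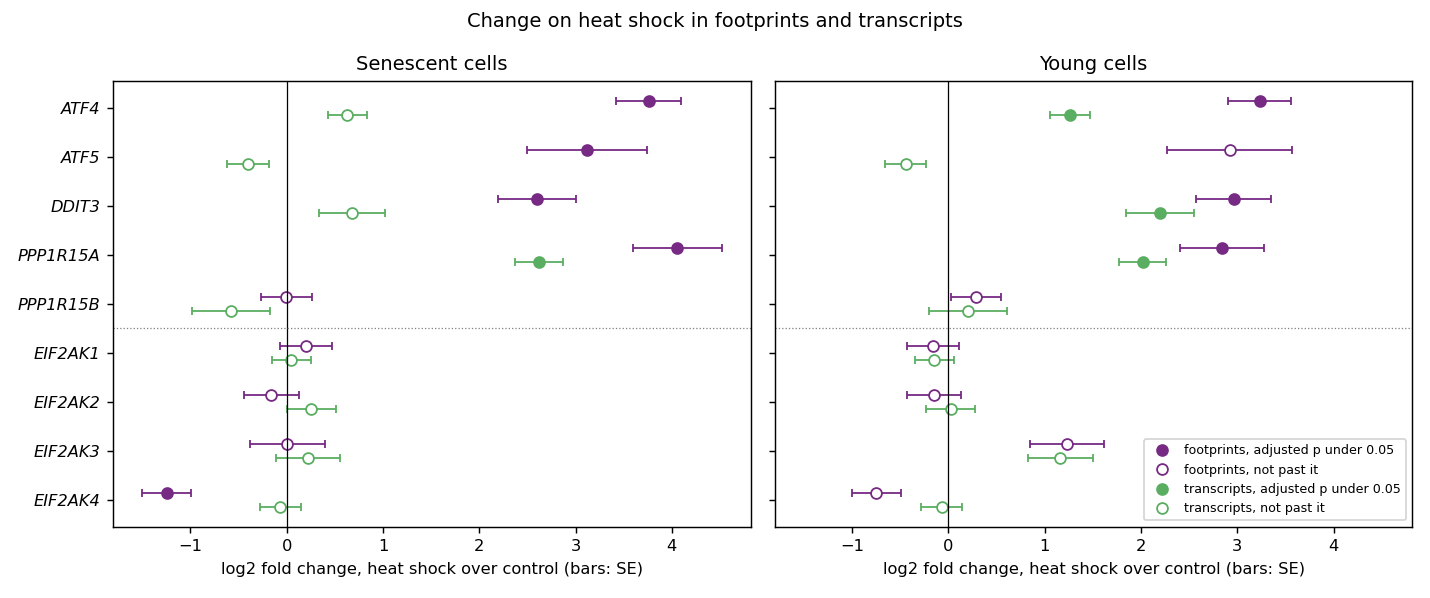
Log2 fold change on heat shock with its SE for footprints and transcripts of the 9 genes, in senescent cells and in young cells. Filled points passed an adjusted p of 0.05. Footprint changes of ATF4, ATF5, DDIT3 and PPP1R15A lie right of their transcript changes, and for ATF5 the transcript change lies left of 0.

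Translational efficiency, the change in footprints minus the change in transcripts in 1 fit of all 16 libraries, rose for ATF4 and ATF5. For ATF4 the log2 change on heat shock was 3.13 ± 0.39 in senescent cells (edgeR, adjusted p = 0.00285) and 1.97 ± 0.38 in young cells (adjusted p = 0.104, and 0.000488 by DESeq2). For ATF5 it was 3.52 ± 0.52 in senescent cells (adjusted p = 0.00490) and 3.40 ± 0.55 in young cells (adjusted p = 0.0340), and the young call was lost in 11 of 16 fits that left out 1 library. Averaged over the states, ATF4 changed by 2.55 ± 0.27 (adjusted p = 0.000344) and ATF5 by 3.46 ± 0.38 (adjusted p = 0.000381), and both averaged calls held in all 16 such fits. Fewer than 1% of genes had a larger rise than either gene in senescent or in young cells, as 99.8% and 99.7% of genes lay below ATF4 and 99.9% in both states below ATF5.

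DDIT3 and PPP1R15A did not pass the edgeR test of efficiency in either state, and whether they passed depended on the test. DDIT3 had log2 changes of 1.94 ± 0.53 in senescent cells (adjusted p = 0.0787, and 0.0246 by DESeq2) and 0.77 ± 0.50 in young cells (adjusted p = 1.00). PPP1R15A had 1.44 ± 0.52 in senescent cells (adjusted p = 0.180) and 0.83 ± 0.52 in young cells (adjusted p = 1.00), and without the young heat shock footprint replicate 1 the young value was −0.04. Averaged over the states, DDIT3 changed by 1.36 ± 0.37 (adjusted p = 0.0636, and 0.0176 by DESeq2) and PPP1R15A by 1.13 ± 0.37 (adjusted p = 0.120, and 0.0469 by DESeq2). The averaged change passed in 2 of 16 fits that left out 1 library for DDIT3 and in 1 of 16 for PPP1R15A. For PPP1R15B the values were 0.57 ± 0.52 and 0.08 ± 0.51. On heat shock the ratio of footprint to transcript TPM was 0.470 for ATF4 in senescent cells and 0.275 in young cells, still below the median over all genes of 0.936 in both states.

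Set beside the kinases, the uORF-controlled mRNAs had the higher median efficiency change. In senescent cells their median log2 change was 1.94, that of the 4 kinases −0.32 and that of all genes 0.07. In young cells the medians were 0.83 for the 5 mRNAs, −0.10 for the kinases and 0.02 for all genes. Of the 9 genes 2 were called in senescent cells and 1 in young cells, where 2.33% and 0.0896% of all genes were called, and 2 in the averaged comparison, where 3.17% were called.

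**Figure D4:**
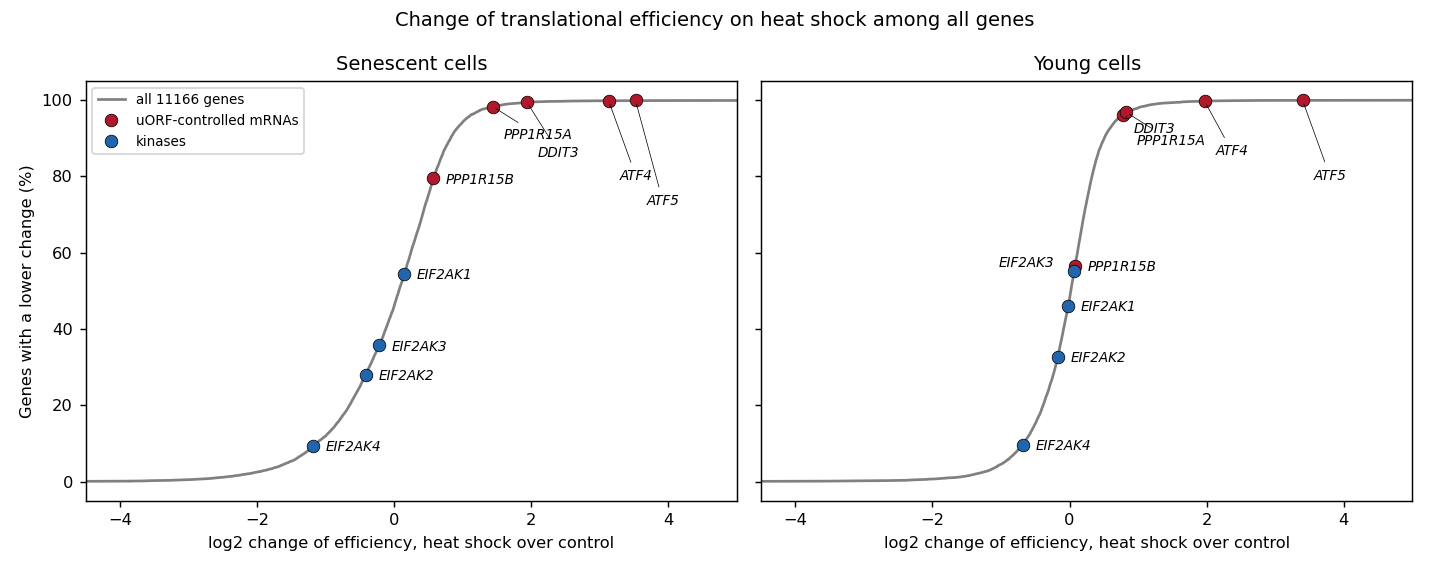
Log2 change of translational efficiency on heat shock (horizontal) against the percentage of the 11166 tested genes with a lower change (vertical), in senescent and in young cells. ATF4 and ATF5 lie at the top end in both states and the kinase EIF2AK4 lies lowest of the 9 genes, with 9.35% of genes lower in senescent and 9.68% in young cells.

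The median efficiency change was not higher in genes with upstream start codons, read from 1 GENCODE transcript per gene. The differences between these classes were not tested. In senescent cells the median log2 change of efficiency on heat shock was −0.10 over 3141 genes with 2 or more upstream ATGs, 0.03 over 2368 genes with 1 and 0.16 over 5430 genes with none. For the 1793 genes with a frame running past the main start it was −0.009. In young cells these medians were −0.038, 0.004, 0.049 and −0.002. The classes overlapped widely. In senescent cells the quartiles were −0.717 and 0.405 with 2 or more upstream ATGs, and −0.344 and 0.550 with none. EIF2AK3, with 3 upstream frames, had efficiency changes of −0.22 ± 0.55 in senescent and 0.07 ± 0.54 in young cells.

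With the filter and without the replicate block, no kinase rose by the edgeR test in transcripts or footprints of either state. Footprints on EIF2AK4 fell. EIF2AK4 had 74.3 and 46.1 CPM of footprints in senescent heat-shocked cells, against 159 and 127 CPM in senescent controls, and 70.8 and 67.4 CPM in young heat-shocked cells, against 110 and 122 CPM in young controls. Every heat-shocked library was below every control. The log2 change was −1.25 ± 0.26 in senescent cells (adjusted p = 0.0249) and −0.75 ± 0.25 in young cells (adjusted p = 0.206), and averaged over the states it was −0.997 ± 0.18 (adjusted p = 0.00936). Without senescent heat shock replicate 1 the senescent value was −1.67 and without replicate 2 it was −0.98. The senescent call was lost in 5 of 8 fits that left out 1 library, with adjusted p up to 0.109, and the averaged call without young control replicate 2 (adjusted p = 0.0546).

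EIF2AK4 transcripts changed little, with log2 changes of −0.06 ± 0.21 in senescent and −0.07 ± 0.21 in young cells. Its efficiency changed by −1.18 ± 0.34 in senescent cells (adjusted p = 0.0944, 0.0209 by DESeq2, and 0.0161 without senescent heat shock footprint replicate 1) and −0.68 ± 0.34 in young cells (adjusted p = 1.00). Averaged over the states it changed by −0.93 ± 0.24 (adjusted p = 0.0528, and 0.00683 by DESeq2).

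EIF2AK3 was the kinase with higher values on heat shock in young cells. Its footprints were at 60.2 and 34.99 CPM in young heat-shocked cells, against 21.8 and 18.7 CPM in young controls, a log2 change of 1.23 ± 0.38 (adjusted p = 0.183, and 0.0386 without the filter on low counts). Its transcripts were at 52.2 and 38.2 CPM, against 23.7 and 16.6 CPM, a log2 change of 1.16 ± 0.34 (adjusted p = 0.215, 0.00899 with the replicate block and 0.0327 by DESeq2). In senescent cells the 2 heat-shocked libraries straddled the controls, with footprints of 34.7 and 15.7 CPM on heat shock, against 26.9 and 23.8 CPM, and the log2 changes were 0.01 ± 0.39 in footprints and 0.22 ± 0.33 in transcripts.

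EIF2AK1 and EIF2AK2 had log2 changes between −0.16 and 0.26 in transcripts and footprints in both states, none called. For EIF2AK1 the footprint change was 0.20 ± 0.27 in senescent and −0.16 ± 0.27 in young cells, and for EIF2AK2 it was −0.16 ± 0.28 and −0.15 ± 0.28. Without strand information in the sources used here, reads of ATF5 and NUP62, DDIT3 and MARS, EIF2AK1 and AIMP2, and EIF2AK2 and EIF2AK3 with partners on the opposite strand cannot be told apart where their exons overlap in GENCODE. On the opposite strand ATF5 shared 626 of its 2954 exon bases with NUP62, and DDIT3 shared 355 of 1307 with MARS. EIF2AK1 shared 532 of 5550 with AIMP2, EIF2AK2 401 of 10753 with AC007899.1 and EIF2AK3 781 of 5434 with AC104134.1. On the same strand in GENCODE, DDIT3 shared 105 exon bases with AC022506.1 and ATF5 shared 74 with MIR4751. ATF4, PPP1R15A, PPP1R15B and EIF2AK4 shared no exon bases with another gene there.

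Between senescent and young cells no member was called in any of the 3 measures. In controls the test called 0 of the 9 genes in transcripts (edgeR, with 1 past an unadjusted p of 0.05 and 0 called by DESeq2), 0 in footprints (0 and 0) and 0 in efficiency (0 and 0), where 0.0379%, 0.00% and 0.00896% of all genes were called. Under heat shock it called 0 in transcripts (3 and 1), 0 in footprints (2 and 1) and 0 in efficiency (1 and 0), against 0.00%, 0.00886% and 0.00% of all genes. For the difference of the heat responses it called 0 in transcripts (1 and 0), 0 in footprints (0 and 0) and 0 in efficiency (0 and 0), against 0.00%, 0.00% and 0.00896% of all genes.

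PPP1R15A, the inducible phosphatase subunit, was higher in both senescent heat-shocked libraries. Its footprints (429 and 712 CPM in senescent heat-shocked cells, against 272 and 103 CPM in young heat-shocked cells) did not overlap and had a log2 change of 1.60 ± 0.41 (adjusted p = 0.233, 0.0114 without the filter and 0.0105 by DESeq2). Without young heat shock replicate 1 this value was 2.42, and without replicate 2 it was 1.05. Its transcripts were higher in senescent heat-shocked cells by 0.89 ± 0.24 (adjusted p = 0.269).

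With the replicate block 4 members passed in transcripts between the states under heat shock, where 13.7% of all genes passed. PPP1R15A (adjusted p = 0.00814) and ATF5 (0.56 ± 0.22, adjusted p = 0.397 without the block and 0.0374 with it) were higher in senescent cells. DDIT3 (−1.23 ± 0.34, adjusted p = 0.277 and 0.0283) and EIF2AK3 (−0.75 ± 0.33, adjusted p = 0.443 and 0.0338) were lower in senescent cells.

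In efficiency under heat shock, senescent over young, none of the 9 genes was called. All 5 uORF-controlled mRNAs had values above 0 and all 4 kinases had values below 0. The share of all genes above 0 was not counted, so these signs are a description only. The values for the mRNAs were 0.86 ± 0.38 for ATF4, 0.57 ± 0.46 for ATF5, 0.97 ± 0.47 for DDIT3, 0.71 ± 0.51 for PPP1R15A and 0.70 ± 0.52 for PPP1R15B. For the kinases they lay between −0.31 ± 0.34 for EIF2AK4 and −0.15 ± 0.54 for EIF2AK3, whose sign changed when single libraries were left out, and the median of all genes was 0.03. The lowest adjusted p among the 9 was 0.753, for ATF4.

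Subunits of the factor that the kinases act on did not pass the test. Of the 8 subunits of eIF2 and of its exchange factor eIF2B, 0 were called in footprints in senescent cells (edgeR, with 3 past an unadjusted p of 0.05 and 1 called by DESeq2), 0 in young cells (0 and 0) and 0 in transcripts in either state (0 and 0). Of all genes, 8.35% were called in footprints in senescent cells and 1.15% in young cells, and 0.577% and 1.14% in transcripts. EIF2S3, the most abundant of them, had 411 and 260 CPM of footprints in senescent heat-shocked cells, against 385 and 280 CPM in senescent controls. Of 11 partners and regulators of the kinases and the phosphatase, only GCN1, which activates EIF2AK4, was called on heat shock in either state. That call was in senescent footprints, where 8.35% of all genes were called. GCN1 footprints were at 251 and 317 CPM in senescent heat-shocked cells, against 176 and 119 CPM in senescent controls (log2 change 0.95 ± 0.23, edgeR, adjusted p = 0.0423). The call was lost with library size only (adjusted p = 0.0732) and with limma on log2 TPM (adjusted p = 0.137). It was also lost in most fits that left out 1 library and with the young control footprint libraries as 1 sample. Without senescent control replicate 2 the change was 0.70.

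Among 8 other mRNAs with reported upstream frames that were tested in footprints, IFRD1 and EPRS rose in senescent cells and 0 were called in young cells (edgeR, with 2 past an unadjusted p of 0.05 and 2 called by DESeq2). Of all genes, 3.12% rose in senescent footprints and 1.15% were called in young ones. IFRD1, a transcriptional regulator, had 88.1 and 123 CPM in senescent heat-shocked cells, against 15.0 and 23.3 CPM in senescent controls (log2 change 2.45 ± 0.28, adjusted p = 0.00301). Its efficiency rose too, by 2.43 ± 0.44 (adjusted p = 0.0126, lost in 4 of 16 fits that left out 1 library). EPRS, a tRNA synthetase for glutamate and proline, changed by 0.77 ± 0.19 in footprints (adjusted p = 0.0435, lost in 6 of 8).

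The listed targets of ATF4 and CHOP moved in both directions. Of 18 tested in footprints, 2 rose and 2 fell in senescent cells, where 3.12% of all genes rose and 5.24% fell, and 2 rose in young cells, where 0.771% of all genes rose. The median log2 changes of the targets were −0.41 in senescent and 0.11 in young cells. Of 19 tested in transcripts, 0 were called in senescent cells (edgeR, with 5 past an unadjusted p of 0.05 and 4 called by DESeq2), and 2 rose and 1 fell in young cells, where 0.668% of all genes rose and 0.471% fell. Each call of a target described here was lost in at least 2 of the 8 fits that left out 1 library. SLC3A2, a subunit of amino acid transporters, rose in footprints by 1.44 ± 0.27 in senescent cells (adjusted p = 0.0198) and 1.63 ± 0.27 in young cells (adjusted p = 0.0289). It was also called in young transcripts, but that call was lost in every fit that left out 1 library.

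HERPUD1, a component of degradation at the endoplasmic reticulum, had 253 and 112 CPM of footprints in senescent heat-shocked cells, against 55.6 and 82.4 CPM in senescent controls, a log2 change of 1.40 ± 0.36 (adjusted p = 0.0468). Without senescent heat shock replicate 1 this value was 0.66. The senescent call was lost with library size only (adjusted p = 0.0866) and with limma on log2 TPM (adjusted p = 0.165). It was also lost in most fits that left out 1 library. In young cells HERPUD1 changed by 2.60 ± 0.37 (adjusted p = 0.0130). SESN2, a stress-induced regulator of growth signalling, fell by 1.31 on the log2 scale in senescent footprints (SE 0.31, adjusted p = 0.0392). The other target that fell there was SLC7A11, a cystine transporter subunit named after its values were seen (log2 change −1.28 ± 0.26, adjusted p = 0.0229). The calls of SESN2 and SLC7A11 were each lost in most fits that left out 1 library. BBC3, which codes for the cell death protein PUMA, fell in young transcripts to 11 and 4 counts on heat shock, against 121 and 147 counts in controls (log2 change −3.86 ± 0.51, adjusted p = 0.0160).

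**Figure D5:**
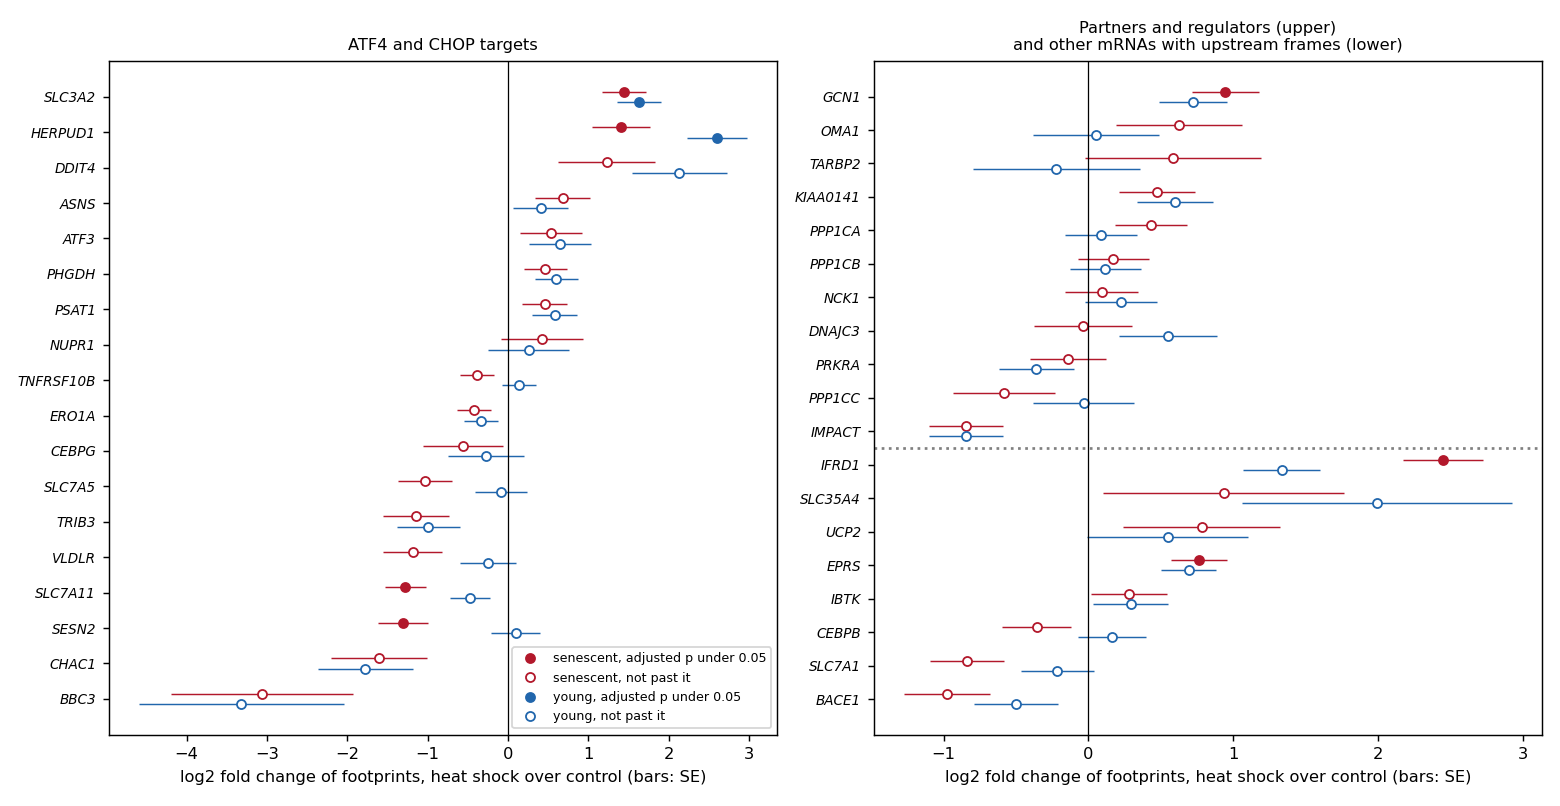
Log2 fold change of footprints on heat shock with its SE in senescent and in young cells, for the tested ATF4 and CHOP targets (left) and for the partners and regulators and the other mRNAs with upstream frames (right). Filled points passed an adjusted p of 0.05. The targets spread on both sides of 0, and IFRD1 stands highest on the right in senescent cells.

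Profiles over the 8 libraries of an assay were compared by the root mean square distance of centred log2 CPM, as a description. In footprints the genes nearest to ATF4 among 7939 were USPL1 (0.365), CDKN2C (0.396) and IER5 (0.397). Nearest to PPP1R15A were ATF4 (0.667), IER5 (0.697) and EPAS1 (0.717). In transcripts the nearest to ATF4 among 8635 genes were DNAJB2 (0.118), AKAP8L (0.145) and PRKD2 (0.157). For PPP1R15A they were MTRNR2L9 (0.164), MTRNR2L1 (0.170) and MTRNR2L10 (0.172). The values of these near-identical copies are uncertain, as they may share reads, which was not tested.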

How the data were processed

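RNA-seq and Ribo-seq gave 16 libraries in 8 groups of 2. Expected counts were deposited by the authors for each gene, already as whole numbers, beside TPM, which are scaled by length. STAR, RSEM, Bowtie2 and the build hg19 are named per the submitters' processing notes, with roles, annotation and strand settings not given in the sources used here. Genes that passed filterByExpr were TMM-normalised and tested in edgeR 4.0.16 (quasi-likelihood F test, R 4.3.3) on all genes, in 6 comparisons and 3 measures. Within a comparison, Benjamini-Hochberg adjusted p-values were read at 0.05, and SEs follow from the F statistic. CPM are TMM-scaled. A shift common to every gene would go undetected.

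Same-numbered RNA-seq libraries deviated together (correlation of deviations 0.481 to 0.658 over the 6 pairs of groups, across genes) and Ribo-seq libraries did not all do so (−0.04 to 0.33), so blocked values stand beside transcripts where they change a call. The meaning of the numbers is not stated in the labels. The 9 genes and the gene lists were chosen with earlier results of these data known. Named list genes are up to 4 called with the largest change on heat shock, otherwise the most abundant. The procedure was tested on simulated data. Alternatives were RLE scaling, library size only, no filter, the block, DESeq2 1.42.0, limma 3.58.1 on log2(TPM + 1) for genes reaching 1 TPM in 2 libraries, CPM in place of TPM for the order of levels, and each library left out in turn. Treating both young control footprint libraries as 1 sample was an alternative chosen after seeing the data.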

Additional observations from a re-analysis of the deposited data

How the results depend on the processing

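Members called out of 9 are given by setting. With the replicate block, transcripts gave 2 on heat shock in senescent cells, 5 averaged and 4 between senescent and young heat-shocked cells, against 1, 3 and 0 without it. The block gave 5 in footprints on heat shock in young cells (2.92% of all genes), against 3, and in efficiency 2 in young cells, 4 in senescent cells and 5 averaged (0.510%, 10.6% and, averaged, 1344 of 11166 of all genes), against 1, 2 and 2. The calls gained with the block were EIF2AK3 (adjusted p = 0.0489) and ATF5 (0.0394) in young footprints, and in efficiency ATF4 in young cells (0.00983), DDIT3 (0.0241) and EIF2AK4 (0.0185) in senescent cells, and DDIT3 (0.0197), PPP1R15A (0.0442) and EIF2AK4 (0.00852) averaged. DESeq2 gave 1 in transcripts and 1 in footprints between senescent and young heat-shocked cells, against 0 and 0 (1.86% and 1.27% of all genes), and 2, 4 and 5 in efficiency for young, senescent and averaged (0.412%, 5.73% and 6.82%). Without the filter footprints gave 5 in young cells and 1 between the heat-shocked states (2.88% and 0.764%). With the young control footprint libraries as 1 sample, footprints gave 1 in young and 3 in senescent cells (0.233% and 2.13%), and efficiency 0 in young cells (0.0437%). Leaving out 1 library gave 0 to 3 in transcripts in young cells, 0 to 1 in senescent cells and 1 to 3 averaged, 1 to 3, 2 to 5 and 4 to 6 in footprints, and 0 to 2, 2 to 3 and 2 to 3 in efficiency. Over the alternatives that kept every library, all genes called ranged from 153 to 1156 (150 as reported) in transcripts in young cells, 75 to 828 (76) in senescent cells and 464 to 2712 (467) averaged. In footprints they ranged from 27 to 447 (130), 247 to 1667 (943) and 423 to 2496 (1865), and in efficiency from 5 to 57 (10), 146 to 1186 (260) and 177 to 1344 (354). Between heat-shocked states they reached 1811 in transcripts (0 as reported), 143 in footprints (1) and 59 in efficiency (0), and between control states 490 (5), 120 (0) and 6 (1). Leaving out 1 library, they ranged from 33 to 123 in transcripts in young cells, 15 to 65 in senescent cells and 185 to 276 averaged, from 27 to 275, 237 to 1934 and 418 to 2563 in footprints, and from 5 to 19, 48 to 684 and 168 to 735 in efficiency, and reached 494 in footprints between heat-shocked states and 22 in efficiency between controls. The causes were not tested.

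Signs changed for small log2 changes on heat shock. With library size only and with limma, EIF2AK1 was at −0.0918 and −0.0619 in senescent footprints and −0.18 and −0.16 in senescent transcripts, EIF2AK2 at −0.26 and −0.21 and PPP1R15B at −0.0709 and −0.0586 in young transcripts. EIF2AK3 in senescent footprints was at −0.26 with library size only, −0.0212 without the filter, −0.0804 with the replicate block and −0.43 with limma, and at −0.0396 in senescent transcripts with limma. PPP1R15B in senescent footprints was at 0.0017 with the block. Leaving out 1 library, EIF2AK1 ranged from −0.18 to 0.60 in senescent and −0.23 to 0.15 in young efficiency, −0.14 to 0.65 and −0.38 to 0.0049 in footprints and −0.0896 to 0.18 in senescent transcripts. EIF2AK2 ranged from −0.48 to 0.22 in senescent and −0.34 to 0.0015 in young footprints and −0.0934 to 0.16 in young transcripts. EIF2AK3 ranged from −0.94 to 0.30 in senescent and −0.37 to 0.38 in young efficiency, −0.88 to 0.35 in efficiency between heat-shocked states, −0.72 to 0.42 in senescent footprints and −0.29 to 0.58 in senescent transcripts. EIF2AK4 ranged from −0.37 to 0.17 in senescent transcripts, PPP1R15A from −0.0355 to 1.34 in young efficiency, and PPP1R15B from −0.13 to 0.29 in young efficiency, −0.28 to 0.34 in senescent footprints and −0.0005 to 0.41 in young transcripts. Of 2754 recomputed changes of the 9 genes, 142 had the opposite sign, 0 of them called in either fit, 59 lost a call and 40 gained one. By CPM in place of TPM the order of the 9 genes changed in all 8 groups. With 2 libraries a group and as few as 3 footprints on ATF5, small changes were not detectable at this depth.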
